A study of Homo sapiens with 5 samples.

Results

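The regions described here are 432 replication origins whose centre lies 10 to 20 kb upstream of the transcription start site (TSS) of the nearest gene, out of 2040 origins that the authors listed with a nearest gene and out of 4784 origins with deposited density windows. They were chosen by the distance in the authors' origin table alone, which used no RNA polymerase II (RNAPII) measurement. That table was selected, by its name, for an empty 5 kb upstream of TSSs, by a procedure the sources used here do not give. RNAPII was measured by chromatin immunoprecipitation and sequencing (ChIP-seq) of its largest subunit, RPB1, in untreated RPE1 cells, a human retinal pigment epithelial line immortalised with hTERT.

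All groups carried an inducible Cas9 and lacked p53 and the puromycin resistance gene. The CFAP20/CCNC-dKO group (1 library) lacked CFAP20 and CCNC in addition, the CFAP20-KO group (1 library) lacked CFAP20, and the WT group (3 libraries) lacked neither. The sources used here do not say whether a knockout line was 1 clone. Density around origins was analysed in the 3 WT libraries and density around TSSs in 1 library of each genotype. Chromatin was fixed with disuccinimidyl glutarate and formaldehyde and mixed with Drosophila chromatin as a spike-in. Both knockouts are labelled with a Bethyl antibody against RPB1 and WT with an Active Motif one, whose catalogue number is also that of the spike-in antibody. Against WT, a genotype effect and an antibody effect cannot be told apart. Nothing in the labels says that the WT libraries came from separate cultures, so their spread may be technical.

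Replication origins are the places where DNA synthesis starts and from which a pair of forks leaves in opposite directions. OK-seq maps them from the strand on which Okazaki fragments, the short pieces of the lagging strand, are found. From an origin upstream of a gene, the fork that runs to the gene passes its TSS and then moves with the transcribing RNAPII, while the other fork leaves the gene behind. RNAPII gathers at active TSSs, where it starts and pauses before it elongates through the gene body. ChIP density has no strand, so genes that overlap on opposite strands share it.

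The centres lay a median of 14016.5 bp upstream of the TSS, with a lowest distance of 10024 bp and a highest of 19966 bp. Each of the 432 origins had a different nearest gene, 236 on the minus strand and 196 on the plus strand. Of the TSSs implied by the distances, 429 lay within 1 kb of a GENCODE 44 transcript start on the same strand of hg38. By that annotation, 393 nearest genes were protein coding and 27 were long noncoding RNA (lncRNA) genes. The centre lay in no protein-coding gene for 364 origins, in one on the strand of the nearest gene for 49, in one on the opposite strand for 18, and in genes on both strands for 1. On the side away from the nearest gene, 322 origins had no protein-coding TSS within 50 kb, 82 had a divergent one and 28 had only one pointing the same way.

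Promoters of 4 genes that recur in the results are shown beside the centres of the origins upstream of CTSD and CITED2, so that TSS and origin can be compared. The promoters are the 250 bases before the RefSeq start on GRCh38.p14, and the centres are 201 bases of hg38 written in the direction of the gene. All 4 genes lie on the minus strand: CTSD (promoter chr11:1763928-1764177, centre chr11:1774901-1775101), PXDN (promoter chr2:1744516-1744765), CITED2 (promoter chr6:139374649-139374898, centre chr6:139393901-139394101) and ZFAND5 (promoter chr9:72365209-72365458). Capitals mark the GC box GGGCGG and the CCAAT box on either strand.
CTSD promoter: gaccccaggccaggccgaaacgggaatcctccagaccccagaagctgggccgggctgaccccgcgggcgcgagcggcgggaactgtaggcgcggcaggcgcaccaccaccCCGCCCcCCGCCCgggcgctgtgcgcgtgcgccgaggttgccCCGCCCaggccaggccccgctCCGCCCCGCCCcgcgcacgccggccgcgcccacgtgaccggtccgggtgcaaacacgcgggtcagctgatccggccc
PXDN promoter: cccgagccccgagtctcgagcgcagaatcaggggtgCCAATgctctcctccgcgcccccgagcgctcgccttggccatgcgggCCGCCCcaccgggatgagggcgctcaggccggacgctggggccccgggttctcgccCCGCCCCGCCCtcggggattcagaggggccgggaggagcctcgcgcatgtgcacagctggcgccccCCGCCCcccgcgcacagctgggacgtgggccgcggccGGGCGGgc
CITED2 promoter: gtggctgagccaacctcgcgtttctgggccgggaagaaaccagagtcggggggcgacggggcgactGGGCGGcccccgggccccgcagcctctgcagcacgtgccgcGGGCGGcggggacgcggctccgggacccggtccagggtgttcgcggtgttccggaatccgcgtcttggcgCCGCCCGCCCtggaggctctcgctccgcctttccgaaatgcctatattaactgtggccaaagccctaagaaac
ZFAND5 promoter: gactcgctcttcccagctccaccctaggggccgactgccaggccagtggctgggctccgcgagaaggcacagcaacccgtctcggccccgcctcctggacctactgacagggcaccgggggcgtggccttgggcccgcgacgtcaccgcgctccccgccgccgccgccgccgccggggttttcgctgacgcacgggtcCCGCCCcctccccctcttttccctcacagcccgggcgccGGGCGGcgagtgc
CTSD origin centre: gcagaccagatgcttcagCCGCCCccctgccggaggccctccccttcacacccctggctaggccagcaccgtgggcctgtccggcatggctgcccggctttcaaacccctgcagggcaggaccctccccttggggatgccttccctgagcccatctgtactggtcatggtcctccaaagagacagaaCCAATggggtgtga
CITED2 origin centre: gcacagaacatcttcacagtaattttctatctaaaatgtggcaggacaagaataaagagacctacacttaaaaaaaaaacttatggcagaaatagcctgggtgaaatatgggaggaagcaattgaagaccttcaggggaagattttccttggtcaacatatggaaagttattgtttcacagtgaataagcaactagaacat
GC made up 79.2% of the CTSD promoter, 78.4% of the PXDN promoter, 70.0% of the CITED2 promoter and 75.6% of the ZFAND5 promoter. It made up 65.2% of the CTSD origin centre and 36.3% of the CITED2 origin centre, which held no CpG. The 4 promoters held 36, 32, 30 and 30 CpGs in the same order.

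RefSeq promoters were matched to 328 of the 432 nearest genes by symbol, and all 328 had the same letters in hg38. The GC box stood in 70.1% of these 328 promoters, against 42.6% of all 34796 promoters in the table, counting both strands. The TATA motif TATAAA stood in 5.79% of them, against 10.8% of all promoters. The CCAAT box stood in 34.5%, against 32.0%, and the E box CACGTG in 11%, against 6.31%. A match is a description of letters and not a site. Over the 432 origins, median GC content was 57.4% within 1 kb of the TSS and 42.4% at the mirror position on the far side. It was 42.1% within 5 kb of the centre and 41.1% in the flanks, 75 to 100 kb away. The gene side and the far side, from 5 to 50 kb, had the same median GC content of 42.0%. Within 1 kb of the TSS, the median was 55.8% for origins within 10 kb upstream and 56.6% for those 20 to 50 kb upstream.

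Density is given below relative to the median 200-bp bin of its library over all listed windows. Deposited values came in whole steps (tolerance 0.02 of a step), and the median bin held 20 steps in WT library 1, 7 in library 2 and 3 in library 3. Library 1 was thus the most deeply measured and library 3 the least. The gene side of an origin held a median of 5622, 1728.5 and 934 steps in libraries 1, 2 and 3, and its TSS window 586, 149 and 110 steps. At TSSs the knockout libraries were shallower: in fragment equivalents, CFAP20/CCNC-dKO had 16.8% and CFAP20-KO 12% of the WT depth. The fragment length was the median of isolated runs of 1 step. It was 320 bp in CFAP20/CCNC-dKO, 300 bp in CFAP20-KO and 140 bp in WT, the last from 61 runs only. Both percentages depend on these unlike lengths. All 9 listed genes of an 18-gene list expressed in RPE1 cells lay above the promoter filter given below, between 1.17 and 13.6. The listed markers of lymphocytes (3), hepatocytes (2) and erythroid cells (1) lay below it, as did 1 of 2 neuronal markers. The other neuronal marker had 1.05, above the filter and close to the lowest of the 9. The 4 listed markers of retinal pigment epithelium in tissue, RPE65 among them, lay between 0.391 and 0.539, near the filter, and 3 of them lay above it.

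RNAPII density was higher on the gene side of these origins than on the far side. The gene side is by definition the one that holds the nearest listed TSS, so part of this difference follows from how the origins were chosen. The mean relative density on the gene side was 1.38, 1.19 and 1.56 in WT libraries 1, 2 and 3, and on the far side 1.11, 1.02 and 1.16. The gene side was the higher one in each library, and its lowest value lay above the highest far side value. The log2 ratio of the gene side to the far side was 0.32, 0.22 and 0.42, with a mean of 0.32 ± 0.10 (SD, n = 3 libraries), or 1.25-fold. By the exact two-sided sign-flip permutation test over libraries, p was 0.25, the smallest that 3 libraries allow, so no result over the WT libraries can pass a threshold of 0.05.

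**Figure D1:**
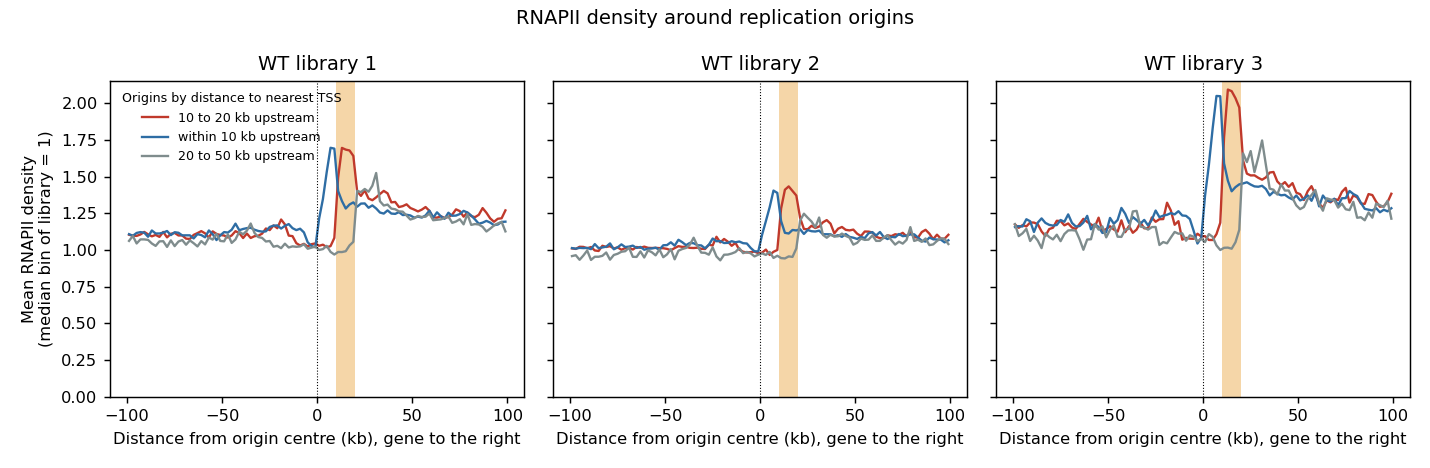
Mean RNAPII density (median bin of the library = 1) against the distance from the origin centre in kb, with the nearest gene to the right, in each of the 3 WT libraries. Lines stand for origins 10 to 20 kb upstream of the TSS (red), within 10 kb (blue) and 20 to 50 kb (grey), and the shaded band runs from 10 to 20 kb, where the red line peaks at 1.70, 1.43 and 2.09 in libraries 1, 2 and 3.

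The same ratio averaged 0.21 ± 0.08 for the 667 origins within 10 kb upstream and 0.19 ± 0.07 for the 243 origins 20 to 50 kb upstream. The origins 10 to 20 kb upstream exceeded those within 10 kb by 0.11 ± 0.03 and those 20 to 50 kb upstream by 0.12 ± 0.03 on the log2 scale, in 3 of 3 libraries each (exact permutation p = 0.25 for both). The side window holds the TSS of every origin 10 to 20 kb upstream but misses that of the 312 nearer origins whose TSS lies within 5 kb. With the 198 origins of the nearer class whose TSS lay over 7 kb away, that class had 0.38, 0.25 and 0.51 in libraries 1, 2 and 3, and the difference turned to -0.06 ± 0.03 (0 of 3 above 0, exact permutation p = 0.25), a comparison added after the data were seen. The higher ratio against the whole nearer class thus did not hold once its TSSs lay inside the window. Against origins 20 to 50 kb upstream, less of the gene lies within the window of the farther class by construction. The difference from that class was 0.052 with sides of 5 to 100 kb and 0.27 with sides of 5 to 25 kb, so its size depended on the window. The 141 origins over 50 kb upstream and the 557 origins downstream of the nearest TSS had ratios below 0, at -0.22 ± 0.04 and -0.09 ± 0.04. Both upstream neighbours are classes of the same table measured in the same libraries, so their ratios share depth and antibody.

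Counted origin by origin, the gene side was higher in all 3 libraries at 283 of 432 origins (65.5%), where all 2040 listed origins had 49.7%. Origins within 10 kb upstream had 57.0% and those 20 to 50 kb upstream 56.8%. All listed origins also include those over 50 kb upstream (27.0%) and downstream of the nearest TSS (31.2%). The far side was higher in all 3 at 75 origins (17.4%), where all listed origins had 26.9%. A gene side at least 1.5-fold above the far side in all 3 libraries was found at 42 origins (9.72%), against 6.13% of all listed origins. It was found at 6.75% of origins within 10 kb and 6.58% of those 20 to 50 kb upstream. The reverse held at 6 of the 432 origins (1.39%), against 2.84% of all listed origins. The count was 17 in place of 42 with a 5 times larger pseudocount, 25 with sides of 5 to 100 kb and 87 without library 2. Log2 ratios of single origins used a pseudocount of 10% of the library median and understate differences at low density. Over the 432 origins these ratios had a median of 0.27, against 0.11 over all listed origins, with quartiles of 0.01 and 0.54. The median was 0.20 for origins within 10 kb and 0.14 for those 20 to 50 kb upstream.

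Values just inside and just outside the distance limits are given as a description. Inside the 10-kb limit, the origin of CCNY (10024 bp) had log2 side ratios of -0.08, 0.08 and -0.01, and that of GOLIM4 (10077 bp) had 0.38, 0.58 and 0.71. Outside it, C1QTNF9B (9999 bp) had 0.14, 0.00 and 0.33 and RFX7 (9919 bp) had 0.61, 0.45 and 0.86. Inside the 20-kb limit, INPP4B (19966 bp) had 0.17, 0.16 and -0.02 and DOCK1 (19908 bp) had 0.46, 0.24 and 0.62, and outside it SECISBP2L (20055 bp) had 0.10, -0.02 and -0.00 and RAB10 (20083 bp) had 0.25, 0.08 and 0.22. Both limits thus had origins with ratios near 0 on either side.

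**Figure D2:**
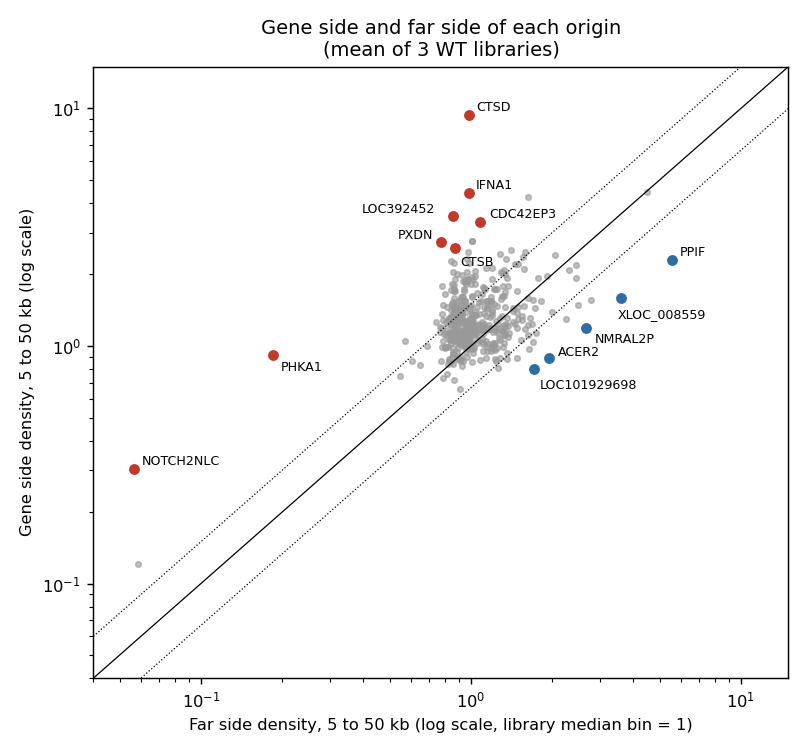
Relative density on the gene side (y axis) against the far side (x axis), both 5 to 50 kb from the centre and on log scales, for each of the 432 origins as the mean of 3 WT libraries. The solid line marks equality and the dotted lines 1.5-fold, and the 8 origins with the highest ratio (red) and the 5 with the lowest (blue) carry the name of the nearest gene, with CTSD at 9.40 on the gene side and 0.984 on the far side.

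The highest side ratio belonged to the origin 11074 bp upstream of CTSD (chr11, centre at position 1775001 of hg38), the gene of the lysosomal protease cathepsin D. Its gene side had a relative density of 9.98, 7.28 and 10.9 in libraries 1, 2 and 3, and its far side 0.937, 0.919 and 1.09. The densest 10 kb of its window was centred 36.1 kb from the origin at 21.1 times the library median, over IFITM10, an interferon-induced transmembrane protein gene that runs in the direction of CTSD. The log2 ratio was 3.12 ± 0.23, and the mean ratio of all 432 origins was 0.30 without this origin. Another lysosomal protease gene, CTSB (cathepsin B, chromosome 8), had 2.67, 1.95 and 3.13 on the gene side and 0.861, 0.878 and 0.878 on the far side, a log2 ratio of 1.44 ± 0.34. There the densest 10 kb lay 38.5 kb from the origin, over CTSB itself.

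PXDN encodes peroxidasin, which crosslinks collagen IV in basement membranes. Its origin had 2.54, 2.20 and 3.45 on the gene side and 0.741, 0.857 and 0.735 on the far side (log2 ratio 1.67 ± 0.41), and the 2 sides did not overlap. CDC42EP3, which encodes an effector of the GTPase CDC42, had 3.70, 2.41 and 3.91 on the gene side and 1.01, 1.06 and 1.17 on the far side (1.51 ± 0.35). Its origin lay inside the annotated gene, upstream of the TSS the authors used.

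In 2 of the 8 highest cases the densest 10 kb of the whole window lay over a neighbouring lncRNA on the opposite strand. The origin upstream of IFNA1, an interferon alpha gene, had 4.13, 3.10 and 5.99 on the gene side and 0.983, 0.943 and 1.02 on the far side (log2 ratio 2.01 ± 0.42). The origin centre lies within MIR31HG, the host gene of miR-31, and the densest 10 kb, at 7.13, lay over IFNA1 and MIR31HG. LOC392452, which overlaps the pseudogene MFFP3 of GENCODE, had 4.00, 2.43 and 4.14 on the gene side and 0.853, 0.774 and 0.938 on the far side (1.89 ± 0.31). Its densest 10 kb, at 7.13, was centred 53.3 kb away over MIR222HG, the host gene of miR-221 and miR-222. That centre lies beyond the 50 kb at which the gene side ends. Its own TSS window held 0.925, 0.857 and 0.267, no more than the median bin.

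The other 2 of the 8 rested on low density. At the origin of PHKA1, a muscle phosphorylase kinase subunit gene, the gene side was at 0.912, 0.892 and 0.957 and the far side at 0.206, 0.166 and 0.184 (log2 ratio 1.84 ± 0.10). There 63.3% of the far side bins were at 0 in all 3 libraries. NOTCH2NLC, a gene of a family of near-identical NOTCH2 copies whose reads cannot be placed with certainty, had 0.265, 0.275 and 0.375 on the gene side and 0.0646, 0.0550 and 0.0501 on the far side (1.36 ± 0.27). Both sides of NOTCH2NLC were thus far below the library median.

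The lowest ratios lay beside a strongly occupied gene on the far side. PPIF encodes cyclophilin D of the mitochondrial matrix, and its origin had 2.33, 1.86 and 2.73 on the gene side and 5.49, 4.45 and 6.73 on the far side, a log2 ratio of -1.23 ± 0.04. The densest 10 kb there, at 8.55, lay 14.5 kb to the far side over ZMIZ1, a gene of a transcriptional coregulator. XLOC_008559 (-1.11 ± 0.33), NMRAL2P (-1.08 ± 0.22), ACER2 (-1.02 ± 0.29) and LOC101929698 (-1.0 ± 0.54) followed. Their densest 10 kb lay on the far side over ANKRD1 (a muscle ankyrin repeat gene), over TRA2B (a splicing factor gene), over RPS6 (a ribosomal protein gene) with DENND4C, and over NOL4L.

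The density at the nearest TSS was set against a mirror position that, by the choice of the nearest TSS, has no listed TSS closer to the centre. Within 1 kb of the TSS, mean relative density was 3.04, 2.30 and 4.03 in WT libraries 1, 2 and 3, and at the mirror position, the same distance from the centre on the far side, it was 1.09, 1.03 and 1.17. The log2 ratio was 1.49, 1.16 and 1.78, with a mean of 1.48 ± 0.31, or 2.78-fold (exact permutation p = 0.25). It exceeded that of origins within 10 kb, 1.31 ± 0.31, by 0.17 ± 0.01 and that of origins 20 to 50 kb upstream, 1.33 ± 0.26, by 0.14 ± 0.05, in 3 of 3 libraries each (exact permutation p = 0.25 for both). The nearer class included the 312 origins whose TSS lies within 5 kb of the centre. Where a TSS lies within 1 kb of the centre, its window overlaps the mirror window, which draws the ratio towards 0 by construction. The part of this in the difference was not tested.

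**Figure D3:**
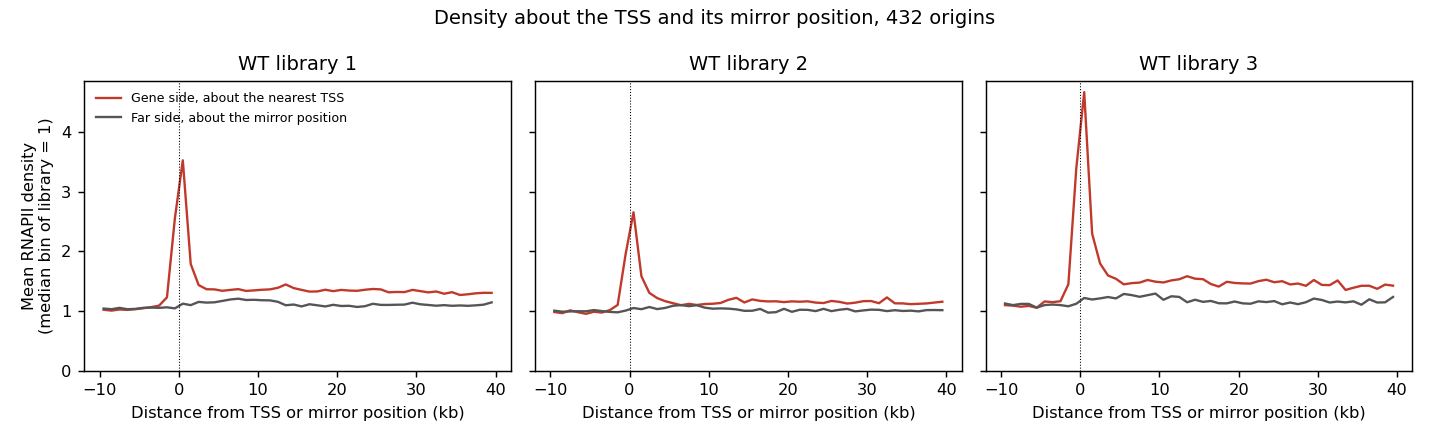
Mean relative density of the 432 origins against the distance in kb from the nearest TSS (red) or from its mirror position on the far side (grey), in each of the 3 WT libraries. Positive distances run in the direction of the gene, whatever its length, or away from it on the far side. The first kb after the TSS reaches 3.53, 2.66 and 4.67 in libraries 1, 2 and 3, against 1.12, 1.05 and 1.22 at the mirror.

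The TSS was at least 2-fold above its mirror in all 3 libraries at 203 of 432 origins (47.0%), against 39.5% of the 1421 listed origins upstream of a TSS inside the window. It was at least 4-fold above at 28 origins (6.48%), against 5.14%. The mirror was at least 2-fold above the TSS at 1 origin (0.231%), against 0.422%, that of LINC01819, which was chosen after its values were seen. The highest bin within 50 kb of the centre lay within 2 kb of the TSS in all 3 libraries at 223 origins (51.6%), against 41.8% of 1341 upstream origins. It lay within 2 kb of the mirror at 3 (0.694%), against 0.969%. Over all listed origins the highest bin was on the gene side in all 3 libraries at 39.1% and on the far side at 19.1%, and at these origins it was on the gene side at 283 (65.5%) and on the far side at 52 (12%).

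The excess over the mirror was steepest at the TSS and went on past it, in the direction of the gene, at a lower level. The log2 ratio to the mirror was 0.27 ± 0.14 from 2 to 1 kb before the TSS, 1.28 ± 0.32 in the last kb before it and 1.64 ± 0.30 in the first kb after it. It was 0.75 ± 0.17 from 1 to 2 kb, 0.34 ± 0.11 from 2 to 4 kb, 0.19 ± 0.08 from 4 to 6 kb and 0.15 ± 0.10 from 6 to 10 kb. Farther on it was 0.28 ± 0.08 from 10 to 20 kb and 0.26 ± 0.07 from 20 to 40 kb. From 2 to 20 kb past the TSS the ratio was 0.25 ± 0.09, or 1.19-fold, above 0 in 3 of 3 libraries (exact permutation p = 0.25). This window had the same length at every origin and can reach past the end of a short gene.

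Between the origin and the TSS the 2 sides had similar means. Since the listed TSS is the nearest one, neither this stretch nor its mirror can hold a listed TSS, so a ratio near 0 is largely set by how the origins were chosen. The log2 ratio of this stretch, kept 2 kb from both ends, to its mirror was 0.00, -0.01 and 0.01 in libraries 1, 2 and 3, with a mean of 0.0016 ± 0.011 (exact permutation p = 0.75). Its sign differed between libraries. The stretch was higher than its mirror in all 3 libraries at 91 origins (21.1%), against 22.2% of 1175 upstream origins, and lower at 101 (23.4%), against 22.6%. Both shares lay near those of all upstream origins. PXDN was among the 7 origins at least 1.5-fold above the mirror in all 3 libraries: its stretch had 3.39, 2.86 and 4.82, and the mirror 0.719, 0.764 and 0.543. The 4 origins at least 1.5-fold below were those of PPIF, TNS3, CAMK2G and XLOC_008559, with log2 ratios of -1.93, -1.19, -0.96 and -0.88. The 4 were named after their values were seen. How many of all upstream origins pass 1.5-fold was not counted. The 7 origins above (1.62%) and the 4 below (0.926%) are thus a description only.

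**Figure D4:**
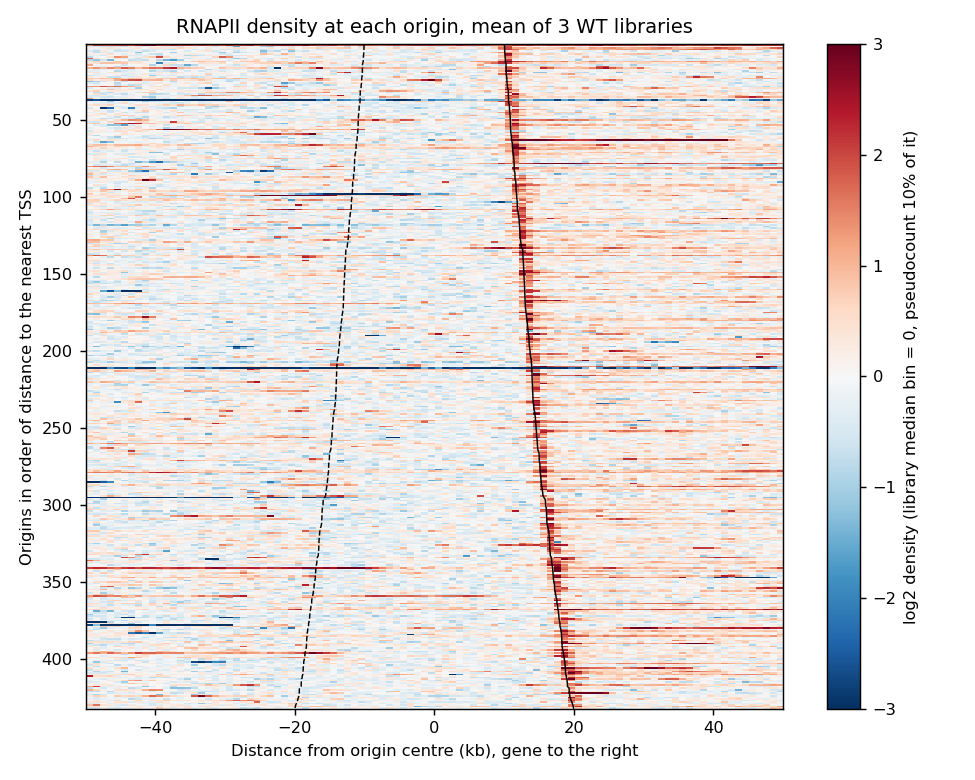
Relative RNAPII density (colour, log2, mean of 3 WT libraries) in 1-kb steps against the distance from the origin centre in kb, with 1 row for each of the 432 origins in order of distance to the nearest TSS. The solid line marks the TSS and the dashed line its mirror: the red band follows the TSS from 10 to 20 kb, and no such band follows the mirror.

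The origin centre had lower density than the distant flanks. Within 5 kb of the centre, mean relative density was 1.03, 0.986 and 1.09 in libraries 1, 2 and 3, and in the flanks, 75 to 100 kb on both sides, it was 1.17, 1.06 and 1.25. The log2 ratio was -0.18, -0.10 and -0.20, with a mean of -0.16 ± 0.05, or 0.895-fold (exact permutation p = 0.25). The centre lay below the flanks in all 3 libraries at 221 origins (51.2%), against 37.9% of all listed origins, and above them at 64 (14.8%), against 27.8%. Since the nearest listed TSS is over 10 kb away, the centre window holds no listed TSS by selection, whereas the flanks may hold some. Against surroundings 5 to 9 kb away on both sides, which hold none either, the log2 ratio was 0.0003, 0.0034 and -0.014 in libraries 1, 2 and 3, with a mean of -0.0033 ± 0.0091 (exact permutation p = 1), a comparison added after the data were seen.

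Origins 20 to 50 kb upstream had a ratio of -0.10 ± 0.04, from which the origins 10 to 20 kb upstream differed by -0.06 ± 0.02 (0 of 3 libraries above 0, exact permutation p = 0.25). Origins over 50 kb upstream and downstream of the nearest TSS had ratios above 0 in 3 of 3 libraries, 0.11 ± 0.0024 and 0.09 ± 0.02. Origins within 10 kb had a ratio of 0.05 ± 0.02, and the difference was -0.21 ± 0.06 (0 of 3 above 0, exact permutation p = 0.25). In that class, however, 312 of 667 origins had the TSS within 5 kb of the centre, inside the centre window. With the 198 origins whose TSS lay over 7 kb away, the class had a ratio of -0.17 ± 0.09 and the difference was 0.01 ± 0.04, a comparison added after the data were seen. Median GC content of the centre was 42.1% for origins 10 to 20 kb upstream, 44.3% for those within 10 kb and 42.0% for those 20 to 50 kb upstream, and its part in the result was not tested.

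Single centres ranged widely. The highest ratio was at LOC105370757, an antisense gene of SCG5 (secretogranin V), where the centre had 3.26, 2.51 and 4.39 and the flanks 0.782, 0.726 and 0.991 (log2 ratio 1.88 ± 0.20). This centre lies within SCG5, which is transcribed on the opposite strand. MLPH, which encodes melanophilin of melanosome transport, had 3.05, 2.42 and 4.18 at the centre and 0.892, 0.808 and 0.901 in the flanks (1.75 ± 0.32). The lowest were RASA2, a gene of a Ras GTPase-activating protein (-1.40 ± 0.73), LOC100294145 (-1.35 ± 0.51) and IFNA1 (-1.3 ± 0.34), whose flanks held 2.41, 3.05 and 3.30 on average. At RASA2 the densest 10 kb lay over ZBTB38 and at LOC100294145 over BRD2, both inside the window.

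**Figure D5:**
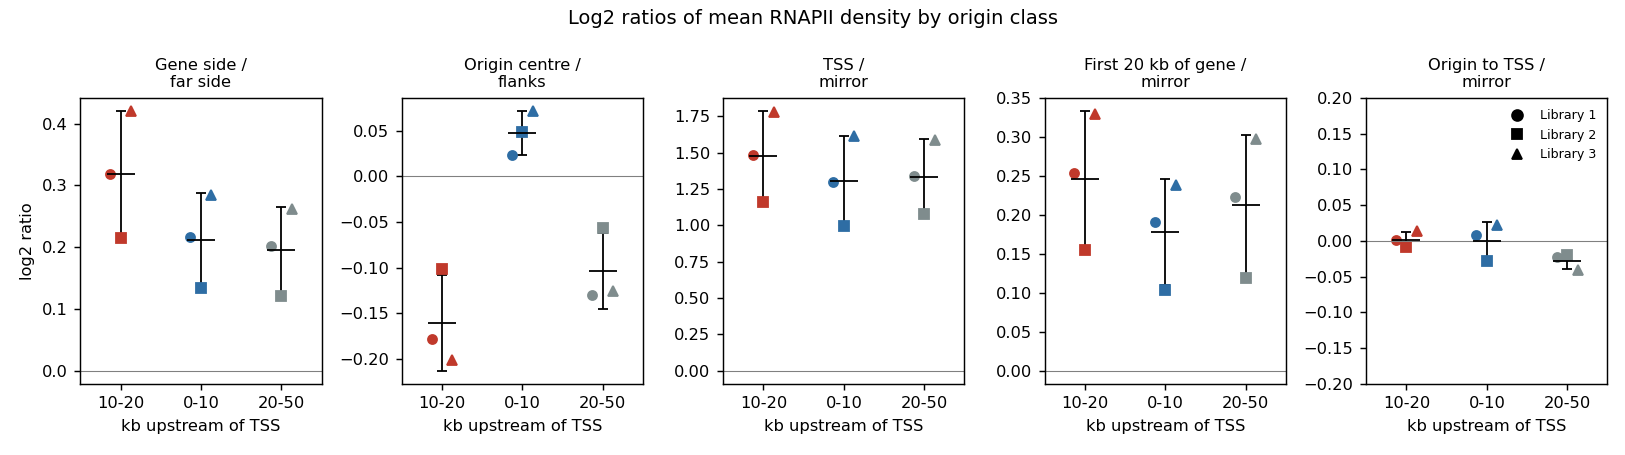
Log2 ratios of mean RNAPII density (y axes, each panel with its own scale) for origins 10 to 20 kb, 0 to 10 kb and 20 to 50 kb upstream of the TSS. Points are the 3 WT libraries, and bars give the mean and SD: origins 10 to 20 kb upstream averaged 0.32 for the sides, -0.16 for the centre, 1.48 for the TSS, 0.25 for the gene and 0.0016 for the stretch to the TSS.

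The TSS of CITED2 had the highest density of the 432. CITED2, a coregulator that binds CBP and p300, had 11.8, 7.83 and 17.5 within 1 kb of its TSS in libraries 1, 2 and 3, and 0.765, 0.60 and 0.767 at the mirror, a log2 ratio of 3.87 ± 0.43. ZFAND5, a zinc finger gene whose protein binds the proteasome, had 8.39, 8.14 and 16.9 at the TSS and 0.985, 0.757 and 0.500 at the mirror (3.69 ± 1.00). PSAP, the gene of the lysosomal saposin precursor, had 7.33, 9.47 and 12.6 at the TSS and 1.65, 1.40 and 2.57 at the mirror (2.34 ± 0.30). At all 3 genes the TSS window was several times its mirror in every library, and library 3 was the highest.

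High TSS density was also found at the forkhead factor gene FOXO3 (7.99, 5.90 and 11.2), the F-box gene FBXW4 (8.23, 7.41 and 9.40), the RNA helicase gene DDX3X (7.32, 6.50 and 11.1) and SLC7A5P2 (6.83, 4.69 and 13.1). SLC7A5P2 is a pseudogene copy of the amino acid transporter gene SLC7A5, so its reads may be shared with the parent gene. Their log2 ratios to the mirror lay between 1.72 and 3.07. The gene side ratio of the origins named here for their TSS density ran from 0.37 ± 0.38 at SLC7A5P2 to 1.34 ± 0.30 at DDX3X. None of the 8 origins with the highest side ratios was among them.

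The nearest genes were also grouped by function. These groups were put together from gene names with results known, and no difference between them was tested. Their counts stand beside 283 of 432 origins (65.5%) with the gene side higher and 75 (17.4%) with the far side higher in all 3 libraries. Of 19 transcription factors of development, 16 had the gene side higher in all 3 libraries and none had it lower in all 3. Their median log2 ratio was 0.57, against 0.27 over the 432 origins. CITED2 (1.22 ± 0.39), the inhibitor of differentiation gene ID3 (0.99 ± 0.31), FOXO3 (0.88 ± 0.22) and the Wnt effector gene TCF7L2 (0.73 ± 0.23) had the highest values, and the photoreceptor factor gene NR2E3 had the lowest, -0.10 ± 0.13.

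Of 20 genes of the cell cycle and chromosome maintenance, 16 had the gene side higher and 3 the far side, with a median of 0.45. The mismatch repair gene MSH6 led with 2.22, 1.66 and 2.97 on the gene side and 0.842, 0.818 and 0.872 on the far side (1.3 ± 0.36), and its densest 10 kb lay over MSH6 and FBXO11. The proliferation marker gene MKI67 had 0.85 ± 0.34, the chromatin gene DEK 0.74 ± 0.36 and the cohesin gene RAD21 0.74 ± 0.29. MCM10, whose protein acts in replication initiation, was the lowest, with 0.691, 0.657 and 0.633 on the gene side and 0.846, 0.827 and 1.06 on the far side (-0.40 ± 0.22).

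Among 10 genes of extracellular matrix and adhesion, 6 had the gene side higher and 1, the cadherin gene CDH17 (-0.68 ± 0.28), the far side, with a median of 0.23, close to the share and the median of all 432 origins. PXDN, the leucine-rich repeat protein gene TSKU (1.06 ± 0.33) and the heparan sulfate polymerase gene EXT1 (1.02 ± 0.36) were the highest. Of 3 immediate early genes, CITED2 and ID3 had the gene side higher, and CEBPD had 0.04 ± 0.15 although its TSS held 5.64, 4.14 and 8.47. Of 7 solute carrier genes, 6 had the gene side higher and none the far side (median 0.37), led by the taurine transporter gene SLC6A6 (1.1 ± 0.25).

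Lower medians than over the 432 origins were found in the remaining groups. Of 12 zinc finger genes, 6 had the gene side higher and 5 the far side, with a median of 0.07, although 7 of them had a TSS at least 2-fold above the mirror and their median TSS ratio was 1.90, against 1.47 over the 432 origins. Of 36 noncoding, antisense and pseudogene RNA genes, 13 had the gene side higher and 18 the far side, with a median of -0.07, and their median TSS ratio was 0.07. Over the 27 lncRNA genes by GENCODE, the side ratio of mean densities was -0.16, -0.12 and -0.16 in libraries 1, 2 and 3, and over the 393 protein-coding genes it was 0.35, 0.24 and 0.46.

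The side ratio was also followed by distance and by the genes around the origin. In 2-kb steps from 10 to 20 kb, it averaged 0.29, 0.39, 0.25, 0.29 and 0.38 (109, 105, 87, 75 and 56 origins), with no order. The 322 origins with no protein-coding TSS within 50 kb on the far side had 0.42 ± 0.14, and the 82 with a divergent one had 0.0015 ± 0.017. The difference was 0.42 ± 0.15, above 0 in 3 of 3 libraries (exact permutation p = 0.25). Between them lay the 28 origins with a TSS on the far side that pointed the same way, at 0.15 ± 0.08. These groups were split by a TSS on the far side, and the side ratio divides by the density of that same side. A lower ratio where the far side holds a TSS is thus largely set by the split, and no conclusion is drawn from this difference. The centre ratio was -0.17 ± 0.05 without a far side TSS and -0.17 ± 0.06 with a divergent one. Genes on the minus strand had a side ratio of 0.42 ± 0.13 and those on the plus strand 0.20 ± 0.07, a difference that was not tested.

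Nascent transcription of the nearest gene was given by a deposited BrU-seq value for 144 of the 432 genes, the authors' gene body score in WT cells with no error and an unstated scale. It ran from 0.000782 to 161.6, the last at PPIF, with a median of 1.13. The 72 genes above this median had a side ratio of 0.41, 0.28 and 0.53 in libraries 1, 2 and 3, and the 72 at or below it 0.11, 0.07 and 0.15. The difference was 0.29 ± 0.09, above 0 in 3 of 3 libraries (exact permutation p = 0.25), and it was 0.41 ± 0.11 for the window 2 to 20 kb past the TSS and 0.26 ± 0.07 for the TSS. Only 151 of the 432 TSSs matched one of the authors' TSS list, and 144 of these 151 had a value. Most genes without a value were thus unmatched, which does not show that they were untranscribed. Genes with a value had a ratio of 0.27 ± 0.09 and the 288 genes without one 0.34 ± 0.11. That difference was -0.06 ± 0.02 (0 of 3 libraries above 0, exact permutation p = 0.25), and it was 0.0032 with the densest 1% of origins left out.

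The promoters of the nearest genes were also measured in the knockouts, to ask whether RNAPII at genes downstream of these origins differs without CFAP20 or without both CFAP20 and CCNC, the gene of cyclin C of the Mediator kinase module. Promoter density was the spike-in normalized mean from -200 to 500 bp of the TSS. It was available for 150 of the nearest genes, of which 134 lay above the filter of 0.410, the median over all 9787 TSSs of the promoter density averaged over the 3 genotypes. With 1 library per genotype there is no replicate check and no test.

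In CFAP20/CCNC-dKO the median promoter of the 134 genes had a density of 1.21, against 1.69 in WT, and 86.6% of these promoters were lower than in WT, where 65.5% of all promoters above the filter were lower. The median log2 ratio was -0.46, against -0.24 over all 4893 promoters above the filter. Relative to that median of all promoters, 3 of the 134 (2.24%) were higher by 1.5-fold or more and 25 (18.7%) were lower by as much, where all promoters had 18.8% and 16.6%. Without this centring, 1 was higher and 54 were lower, where all promoters had 11.3% and 27.9%. The median flank of the same genes, 2000 to 4500 bp from the TSS, had a log2 ratio of 0.02. All promoters above the filter formed a less occupied background, with a WT median of 1.07 against 1.69 for the 134. The pseudocount draws the ratios of weaker promoters more towards 0 by construction. No background of equal density was drawn, so the part of density in the gaps to all promoters was not tested. The same limit applies to the comparisons that follow.

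In CFAP20-KO the median density was 1.69 and in WT it was also 1.69, with a median log2 ratio of 0.06, against 0.13 over all promoters. Relative to that median, 7 of the 134 (5.22%) were higher and 19 (14.2%) lower, where all promoters had 15.7% and 16.6%. Without centring, 17 were higher and 12 lower, where all promoters had 22.2% and 12.4%. With no filter the median over all TSSs was -0.03 and that of the 150 nearest genes 0.06, so the order of the 2 medians turned. Of CFAP20/CCNC-dKO against CFAP20-KO, the median log2 ratio was -0.50, against -0.40 over all promoters. There 16 (11.9%) were higher and 26 (19.4%) lower, where all promoters had 20.9% and 17.5%, and without centring 4 were higher and 56 lower, where all promoters had 10.5% and 38.5%. With no filter the medians were -0.49 over the 150 nearest genes and -0.20 over all TSSs, a wider gap. The 3 comparisons share libraries and are not independent.

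Promoters were ranked among the 134 above the filter, which uses the mean of the 3 genotypes and so depends on the change itself: SAMD9L, with 0.0559 in CFAP20-KO and 0.529 in WT, was left out by it, and RPTN passed it through its CFAP20/CCNC-dKO value alone. SAMD9L is named here after its values were seen. Single promoters in the knockouts rested on few fragments, and the 95% Clopper-Pearson intervals given here cover counting error only. They rest on the fragment lengths given above and are not adjusted for the choice of the most extreme of 134 promoters. The lowest ratio of CFAP20/CCNC-dKO to WT was at ZNF543, a zinc finger gene, with a density of 0.102 in CFAP20/CCNC-dKO, 0.913 in CFAP20-KO and 1.54 in WT. The ratio to WT was 0.0664 (interval 0.00837 to 0.240). CTTNBP2, a gene of a cortactin-binding protein, had 0.158 in CFAP20/CCNC-dKO and 0.831 in WT, a ratio of 0.190 (0.0411 to 0.557). CLIP2, which encodes a microtubule-binding protein, had 0.559 and 1.95, a ratio of 0.286 (0.142 to 0.519). At these 3 genes the flanks were low too, between 0.171 and 0.190 in CFAP20/CCNC-dKO and between 0.196 and 0.208 in CFAP20-KO, against 0.329 to 0.418 in WT, and the part of this in the result was not tested. The NADPH oxidase gene NOX4 had 0.786 in CFAP20/CCNC-dKO and 2.49 in WT, a ratio of 0.315 (0.177 to 0.522).

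The highest ratios of CFAP20/CCNC-dKO to WT were at the heparanase gene HPSE and the procollagen protease gene ADAMTS14. HPSE had 1.52 against 0.950, a ratio of 1.60 (1.04 to 2.41), and ADAMTS14 had 2.34 against 1.58, a ratio of 1.48 (1.05 to 2.05). Both were picked as the highest of the 134 ranked promoters, so neither is read as higher from these intervals. C5orf46 had an interval that includes 1, and RPTN, with 0.567 in CFAP20/CCNC-dKO, 0.282 in CFAP20-KO and 0.392 in WT, is not read as higher. In CFAP20-KO, MCM10 had 1.02 against 0.441 in WT, a ratio of 2.31 (1.16 to 4.29), and OGDH, a gene of the citric acid cycle, had 4.32 against 1.97, a ratio of 2.19 (1.60 to 2.94). SSBP2 (1.94) and PALD1 (1.82) followed. These 4 were also picked as the highest of the 134, so none is read as higher. In CFAP20-KO the flanks were higher too at MCM10 (0.394 against 0.302 in WT) and OGDH (0.531 against 0.361). They were lower at SSBP2 (0.317 against 0.428) and PALD1 (0.398 against 0.460), and the part of the flanks was not tested. TCP11L2 had 0.328 in CFAP20-KO and 1.25 in WT, a ratio of 0.262 (0.0747 to 0.664), followed by the Rab GTPase-activating protein gene TBC1D15 (0.413), the succinate-CoA ligase gene SUCLG1 (0.407) and PRKAA2, a catalytic subunit gene of AMPK (0.469).

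Of CFAP20/CCNC-dKO against CFAP20-KO, ZNF543 (ratio 0.112, interval 0.0127 to 0.496), the antizyme inhibitor gene AZIN2 (0.296), the calcium pump gene ATP2A2 (0.321) and NMT2 (0.324), an N-myristoyltransferase gene, were the lowest. AZIN2 had 0.831 in CFAP20/CCNC-dKO, 2.80 in CFAP20-KO and 2.59 in WT. TBC1D15, C5orf46 and SRP9 were the highest beside RPTN, with ratios between 1.56 and 1.73 whose intervals all include 1.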

How the data were processed

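RPB1 ChIP-seq density was analysed as the authors deposited it, a coverage signal in bins: 200-bp bins to 100 kb on either side of OK-seq origin centres (3 WT libraries, normalization not given in the sources used here) and bins to 5 kb on either side of TSSs (replicate 1 of CFAP20/CCNC-dKO, CFAP20-KO and WT, spike-in normalized per the file names). The submitters' processing notes list BWA 0.7.17 and HOMER 4.8.2 among others, and hg38 as a build, without saying what each was used for. The BrU-seq column is a score the authors deposited.

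With Python 3.11.15, numpy 2.4.6, pandas 2.3.3 and pysam 0.24.0, window means were taken per origin and library, and the log2 ratio of mean densities over origins is the main value. Libraries were the replicates of the exact sign-flip permutation test. Named origins are the 8 highest and 5 lowest side ratios of 1 sign in all libraries, the 8 highest TSS densities, the 3 highest and lowest centre ratios, the 4 highest and lowest promoter ratios per comparison, the 2 nearest each distance limit, and the gene lists; 1 gene that these rules name is not reported here. The origins and lists were chosen with earlier results of these data known, and the gene lists were written after the names of the nearest genes were seen. Genes and strands are from GENCODE 44 on hg38 and promoter sequences from RefSeq on GRCh38.p14. Promoter ratios used a pseudocount of 10% of the WT median. Alternatives concerned windows, averaging, pseudocounts and origins or libraries left out.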

Additional observations from a re-analysis of the deposited data

Results flagged for a closer look

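The centre of origins 10 to 20 kb upstream lay below the flanks in all 3 WT libraries, whereas that of origins within 10 kb lay above them in all 3. The log2 difference was -0.21 (SD 0.06, exact permutation p = 0.25, the smallest 3 libraries allow). With the 198 origins of the nearer class whose TSS lay over 7 kb from the centre, the difference was 0.01 ± 0.04. Groups of 3 libraries are too small for a test of single outlying samples.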

How the results depend on the processing

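Of 166 alternative values of 18 results, 153 kept their direction or size, 10 changed sign and 3 counts moved by over 1.5 times. Part of the 153 could not have come out otherwise. Keeping 1 origin per gene changed no value, and leaving out 1 library cannot turn a mean whose 3 libraries share a sign. The gene side, TSS and gene window ratios kept their sign under all their alternatives: 0.24 to 0.37 for the sides, 1.09 to 1.80 for the TSS and 0.21 to 0.28 for the gene window. Without 1 replicate they were 0.27 to 0.37, 1.32 to 1.63 and 0.20 to 0.29. The mean centre ratio was -0.18 to -0.0033, and -0.19 to -0.14 without 1 replicate. Its value of -0.0033, against surroundings 5 to 9 kb away, lay near 0 with 2 of 3 libraries above 0, so the lower centre did not hold there. The stretch between origin and TSS, near 0, turned to -0.0017 with the median over origins and to -0.011 kept 4 kb from the TSS, and was -0.0043 to 0.0069 without 1 replicate. Its difference from origins within 10 kb turned to -0.013, -0.036 and, without origins with over 20% zero bins, -0.00060, and was -0.0078 to 0.0059 without 1 replicate. With only the origins of that class whose TSS lay over 7 kb away, the centre difference turned to 0.015 and the side difference to -0.065, and the difference between genes with and without a BrU-seq value turned to 0.0032 without the densest 1% of origins. Beyond the windows named, the cause was not tested. The 42 origins with a 1.5-fold higher gene side became 25 with sides of 5 to 100 kb and 17 with a 5 times larger pseudocount, and were 42 to 87 without 1 replicate. Keeping 1 origin per gene left the 432 as they were. The promoter medians kept their sign: 0.03 to 0.06 for CFAP20-KO, -0.48 to -0.37 for CFAP20/CCNC-dKO and -0.50 to -0.45 between both. No paired analysis was possible because the groups share only replicate number 1. With 3 libraries no exact p can be below 0.25, and with 2 none below 0.5. The count of 42 changed most without library 2, to 87.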
